A study of Poecilia reticulata with 6 samples.

Results

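The bile acid transport genes of the guppy (Poecilia reticulata, a small live-bearing fish that tolerates fresh water and seawater) were followed in intestine at 0‰, 18‰ and 35‰ salt. The members were the genes whose symbol, in lower case, began with slc10a, slc51a, slc51b, abcb11 or fabp6. There were 5 of them among 10389 listed genes: slc10a2, slc10a1, slc10a3, slc51a and abcb11b. The genes slc51b, abcb11a and fabp6 were not analysed here.

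All fish were adult wild-type animals kept under one temperature and light cycle. The 0‰ group had no added salt, whereas the 18‰ and 35‰ groups lived in water that gained 3‰ of salt every 2 days, reaching 35‰ over 24 days. Each group had 2 RNA sequencing libraries of total intestinal RNA, 6 in all, and the sample labels write the same salinities as percent salt. How many fish or tanks entered a library and which stretch of intestine was taken are not given in the sources used here, so the spread between the libraries of a group may be technical. Because salt was raised in steps, salinity and time of exposure cannot be told apart.

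Bile acids are made from cholesterol in the liver, released into the gut to disperse dietary fat, and largely taken back by enterocytes in the distal small intestine of mammals. Slc10a2 carries them across the apical membrane together with sodium, and the slc51a and slc51b proteins form the basolateral exporter. In mammals slc10a1 returns bile acids from blood to hepatocytes, the Abcb11 pump secretes them into bile, and slc10a3 is a family member with no established bile acid substrate.

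Expression was measured as TPM, a measure of transcript abundance scaled to library size and transcript length, and so values can be compared between genes. The summed TPM of the listed genes was between 419412 and 481864 per library. Read totals are not given with TPM, so depth is unknown and no counting interval was available. A value of 0 means only that the gene is listed at 0. As an example, tmsb4x, which encodes the widely expressed thymosin beta 4, was listed at 0 in 18‰ replicate 2 and was between 107.92 and 207.59 TPM in the other libraries. Genes of the enterocyte list (26 symbols, 14 rows measured), which includes the brush border gene vill and the intestinal cadherin cdh17, summed to between 5887 and 12510 TPM, so the labelled tissue carried its markers in every library.

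Some libraries stood apart. In 35‰ replicate 1, 10 genes were listed at 0 that were at 1 TPM or more in every other library, and 4 of those 10 were posterior hox genes. The same count was between 0 and 4 in the libraries of 0‰ and 18‰ and was 10 in 35‰ replicate 2, with no posterior hox gene among them. In 0‰ replicate 2 the 9 measured genes of the liver list (plasma proteins) summed to 860 TPM, against 45.7 to 77.4 TPM elsewhere.

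slc10a2 (ENSPREG00000019111) was the most abundant member in 5 of the 6 libraries and was listed at 0 in the other. The 0‰ libraries held 226 and 176 TPM of it and the 18‰ libraries 706 and 613 TPM. Of the 35‰ libraries, replicate 1 held 0 and replicate 2 held 429 TPM. Both 18‰ libraries were above every other library, 35‰ replicate 2 lay between the 18‰ and the 0‰ libraries, and 35‰ replicate 1 was listed at 0. By level, slc10a2 ranked between 95 and 294 of 10389 genes in the libraries where it was detected. It made up 57.1% to 84.5% of the summed TPM of the 5 members in those libraries, and the sum was 107 TPM in 35‰ replicate 1 against 308 to 836 TPM elsewhere.

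**Figure D1:**
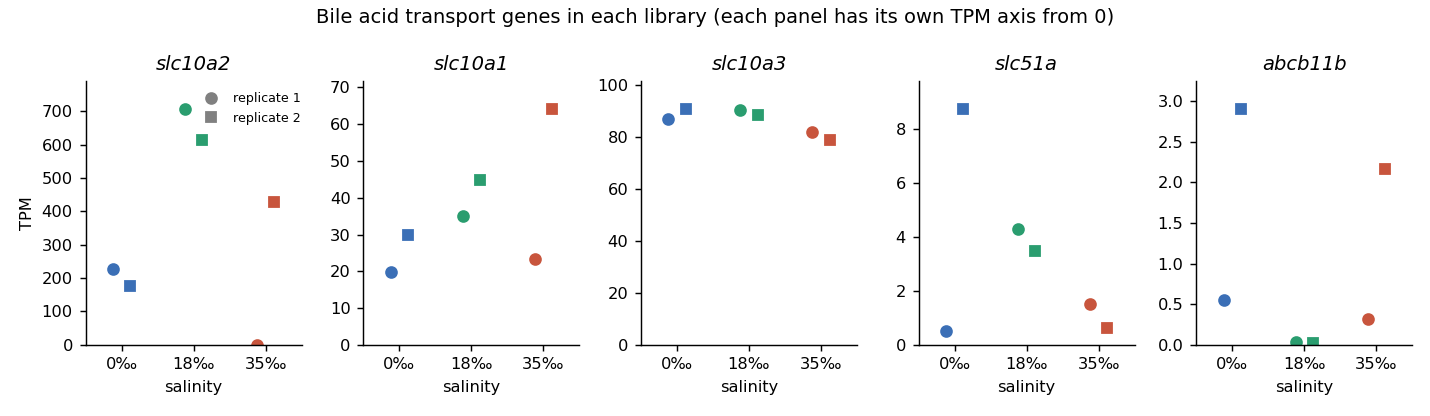
TPM of each bile acid transport gene by salinity. Each panel is one gene with its own linear axis and each point one library. slc10a2 was at 706 and 613 TPM in the 18‰ libraries and split between 0 and 429 TPM at 35‰, while slc10a3 stayed between 79.0 and 90.7 TPM.

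The mean of slc10a2 was 201 ± 35.2 TPM (SD, n = 2) at 0‰ and 659 ± 65.5 TPM (SD, n = 2) at 18‰, a ratio of 3.28, and the ratios of single libraries lay between 2.72 and 4.01. The difference was larger than the spread within either group, and the groups did not overlap. It was not called by the limma fit over all genes, in which the spread is shared by the 3 salinities. On the log2(TPM + 1) scale, which understates changes of low genes, the difference was 1.72 (SE 2.35, 95% interval -3.84 to 7.28, limma adjusted p = 0.995). Without 35‰ replicate 1 the same difference had an SE of 0.24, an unadjusted limma p of 0.000629 and an adjusted p of 0.305, still above 0.05.

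Enterocyte genes stood higher in the 18‰ libraries too. All 13 tested genes of that list had log2 differences above 0, with a median of 0.88 against 0.06 over all genes tested, and 11 of the 13 did not overlap and were higher, against 24.7% of all genes. limma called 0 of the 13 in each of the 3 comparisons, with 6, 3 and 6 at an unadjusted p under 0.05. Without 0‰ replicate 2 the median log2 difference of the 13 at 35‰ against 0‰ was 0.61, and with all libraries it was 0.45. Per 1000 TPM of enterocyte genes, slc10a2 stood at 38.3 and 24.0 TPM in the 0‰ libraries, 66.7 and 49.0 TPM in the 18‰ libraries, and 0 and 45.9 TPM in the 35‰ libraries. On that measure, which was chosen after the values were seen, the ratio of the 18‰ mean to the 0‰ mean was 1.85, against 3.28 for slc10a2 itself, and the groups did not overlap. The part of enterocyte content in the slc10a2 values was not tested. In whole tissue, fewer cells of a type and less RNA per cell cannot be told apart.

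At 35‰ no single level describes slc10a2. Replicate 2, at 429 TPM, was 2.14 times the 0‰ mean and 0.651 times the 18‰ mean, and replicate 1 was listed at 0. The fitted differences were -3.27 against 0‰ (SE 2.35, limma adjusted p = 0.637) and -4.99 against 18‰ (SE 2.35, adjusted p = 0.431). Each turned on the library kept. Without replicate 1 the log2 difference from 0‰ was 1.104 (adjusted p = 0.363) and that from 18‰ was -0.61 (adjusted p = 0.53). Without replicate 2 they were -7.65 (adjusted p = 0.00233) and -9.36 (adjusted p = 0.00144), both called lower, from a single library listed at 0.

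The gap between the 35‰ libraries was 8.75 on the log2(TPM + 1) scale, the largest of all 7897 genes tested. That slc10a2 differed between these libraries was known when the genes were chosen, so the rank is a description with no test. At 35‰, 1.14% of genes differed between replicates by more than 4-fold, at 0‰ 1.24% and at 18‰ 0.342%. Among the members, slc10a2 was past 4-fold at 35‰ only and slc51a at 0‰ only. The gaps of slc10a2 at 0‰ and 18‰ were -0.36 and -0.20.

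**Figure D2:**
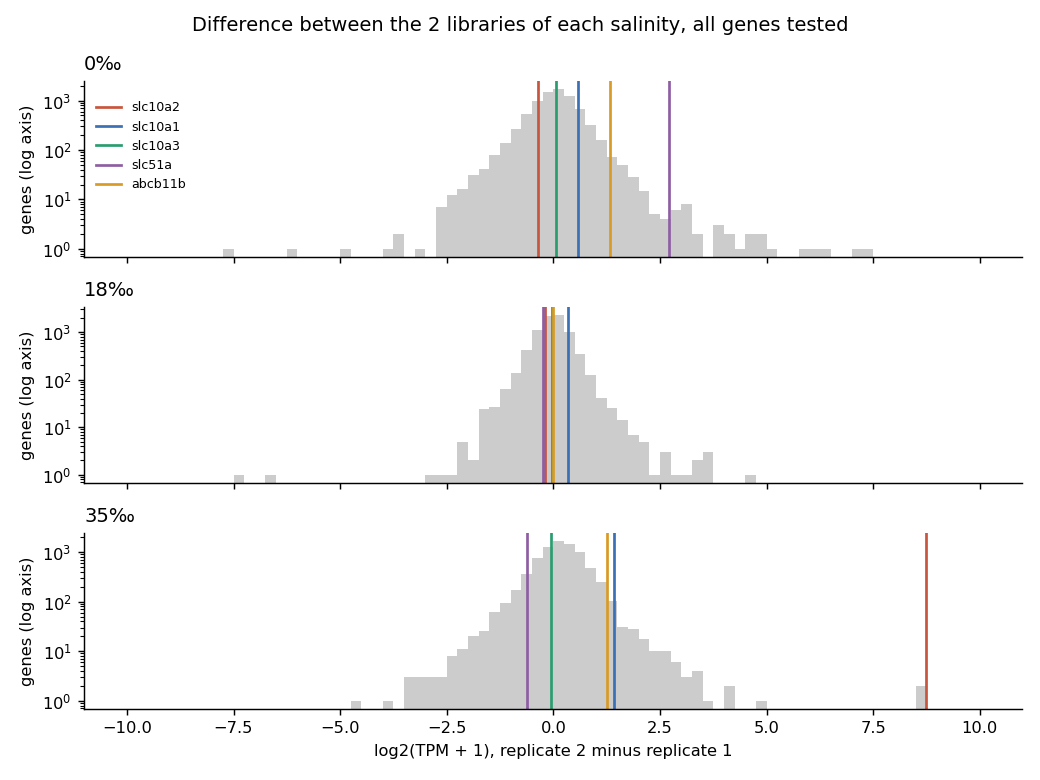
Replicate 2 minus replicate 1 on the log2(TPM + 1) scale within each salinity, for all tested genes (histogram, log count axis) and for the 5 members (marked lines). The line for slc10a2 at 35‰ lies at 8.75, beyond every other gene, and that for slc51a at 0‰ lies at 2.70.

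Few genes shared the drop of slc10a2 in 35‰ replicate 1. Of 3580 genes with a mean of at least 10 TPM in the other libraries, 5 (0.14%) were at least 10-fold lower on TPM + 1 in 35‰ replicate 1 than in each other library. They were slc10a2, tmigd1, hoxc12a, cel.2 and mbd3b. The count was 0 or 1 when each of the other 5 libraries took its place. 35‰ replicate 1 was singled out with its slc10a2 value known, so the place of slc10a2 among the 5 carries no weight.

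tmigd1 (ENSPREG00000015443), which encodes an epithelial adhesion protein, tracked slc10a2 most closely. Its levels were 319 and 212 TPM at 0‰, 700 and 679 TPM at 18‰, and 0 and 415 TPM at 35‰. Its TPM was between 0.966 and 1.41 times that of slc10a2 in the 5 libraries where both were detected, so the pair was high and low in the same libraries. The posterior patterning gene hoxc12a was at 30.6, 22.1, 35.3, 37.3, 0 and 15.8 TPM in the same order of libraries. The bile-salt-activated pancreatic lipase cel.2 was at 5570 and 2094 TPM at 0‰, 2100 and 980 TPM at 18‰, and 2.94 and 43.0 TPM at 35‰. Unlike slc10a2, cel.2 was low in both 35‰ libraries. mbd3b, of the methyl-CpG-binding domain family, was at 0.21 and 11.5 TPM at 35‰ and between 34.9 and 71.9 TPM elsewhere.

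**Figure D3:**
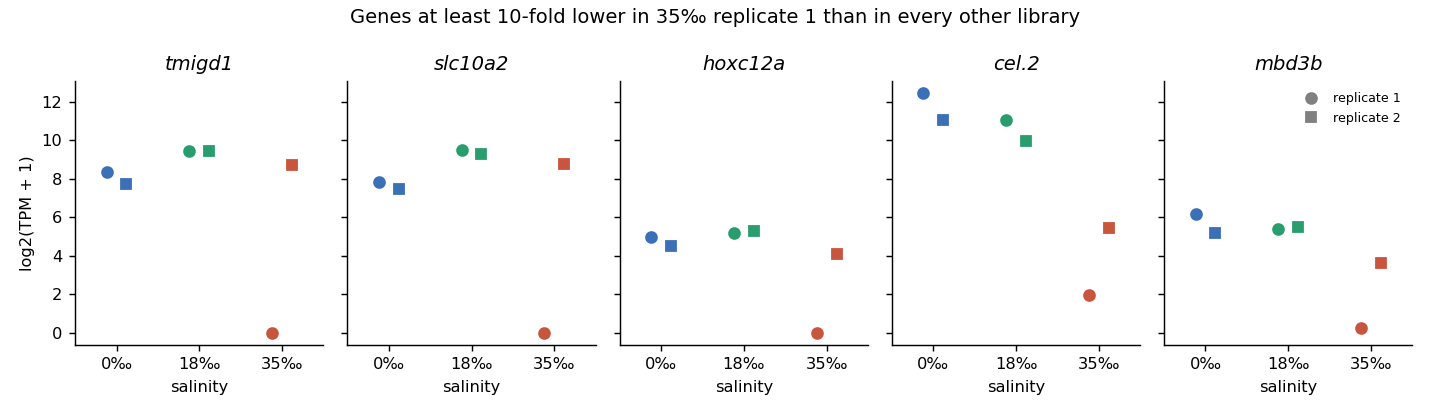
Level on the log2(TPM + 1) axis by salinity for the 5 genes at least 10-fold lower in 35‰ replicate 1 than in every other library. Circles are replicate 1 and squares replicate 2, and slc10a2, tmigd1 and hoxc12a lie at 0 in that library alone.

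Over the 6 libraries, the genes with the highest Pearson correlation to slc10a2 on the log2(TPM + 1) scale were tmigd1 (r = 0.998), pik3r4 (0.995), maff (0.992), bbx (0.991) and ptbp1a (0.989). slc10a2 was listed at 0 in 1 library, 35‰ replicate 1, which weighs heavily in r. Of the 5 genes only tmigd1 was also at 0 there. pik3r4 was at 10.99 TPM in that library and between 14.63 and 15.36 TPM elsewhere. maff, bbx and ptbp1a were at 7.74, 1.21 and 26.1 TPM in it. Over the 5 libraries without 35‰ replicate 1, tmigd1 was at rank 25 (r = 0.978). The leading genes were then def6c, dusp22a, atp7b, tbl1xr1b and nox1. None of the 5 leading genes was common to both lists.

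slc51a (ENSPREG00000014333), the exporter subunit at the other face of the enterocyte, was a low gene. The 0‰ libraries held 0.50 and 8.75 TPM, the 18‰ libraries 4.32 and 3.49 TPM, and the 35‰ libraries 1.51 and 0.64 TPM. The 0‰ libraries spanned the whole range, so that only 35‰ and 18‰ did not overlap. The highest value was in 0‰ replicate 2, the library with the highest liver list sum, and it was 6.5-fold above replicate 1 on TPM + 1. The part of liver transcripts in it was not tested. The log2 difference was 0.35 for 18‰ against 0‰ (SE 0.78, limma adjusted p = 0.995), -0.91 for 35‰ against 0‰ (adjusted p = 0.70) and -1.27 for 35‰ against 18‰ (adjusted p = 0.535). Without 0‰ replicate 2 the first became 1.70 and the second 0.44, and without 0‰ replicate 1 they were -0.996 and -2.26. The apical importer exceeded the exporter subunit by a factor that ran from 20.1 to 671 across the 5 libraries with slc10a2 detected, and the ratio was 0 in 35‰ replicate 1.

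slc10a1 (ENSPREG00000010353) was detected in every library, at 19.9 and 30.0 TPM at 0‰, 35.0 and 44.9 TPM at 18‰, and 23.3 and 64.1 TPM at 35‰. The 18‰ libraries were above the 0‰ libraries, and the 35‰ libraries overlapped both groups. Its log2 difference was 0.68 for 18‰ against 0‰ (SE 0.47, limma adjusted p = 0.961), and 0.65 and -0.03 for 35‰ against 0‰ and 18‰ (adjusted p = 0.639 and 0.987). Replicate 2 was the higher library of each pair, by 0.57 at 0‰, 0.35 at 18‰ and 1.42 at 35‰ on the log2 scale. slc10a2 was higher in replicate 2 at 35‰ only. The difference of slc10a1 from 0‰ was 1.36 without 35‰ replicate 1 and -0.0652 without 35‰ replicate 2, and its difference from 18‰ was 0.68 and -0.74. The part of liver transcripts in these values was not tested.

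abcb11b (ENSPREG00000013322), a homologue of the mammalian bile salt export pump, was at 0.55 and 2.90 TPM at 0‰, 0.03 and 0.02 TPM at 18‰, and 0.32 and 2.16 TPM at 35‰. Both 18‰ libraries were below every other library, and the 0‰ and 35‰ libraries overlapped. Its highest value, 2.90 TPM, was in 0‰ replicate 2, the library with the highest liver list sum. How far liver transcripts entered these low values was not tested. The log2 difference of 18‰ from 0‰ was -1.26 (SE 0.56, limma adjusted p = 0.828), and its unadjusted p of 0.0574 was the smallest of any member in any comparison. That of 35‰ from 0‰ was -0.27 (adjusted p = 0.883), and that of 35‰ from 18‰ was 0.99 (adjusted p = 0.499). Without 35‰ replicate 1 the second of these was 0.36. The higher libraries at 0‰ and 35‰ carried the gene past the filter, so it was not tested when either 0‰ replicate 2 or 35‰ replicate 2 was left out.

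slc10a3 (ENSPREG00000020981) was the steadiest member, at 87.1 and 90.7 TPM at 0‰, 90.6 and 88.4 TPM at 18‰, and 82.1 and 79.0 TPM at 35‰. The 35‰ libraries lay just below all others, and no pair of replicates differed by more than 0.06 on the log2 scale as deposited. With median-ratio scaling of the libraries, its 35‰ and 18‰ values overlapped, and replicate 2 minus replicate 1 at 35‰ was -0.26 on the log2 scale. With that scaling, and with equal-sum scaling, both 18‰ libraries lay below both 0‰ libraries. The differences were 0.01 (18‰ against 0‰, SE 0.20, limma adjusted p = 0.998), -0.14 (35‰ against 0‰, adjusted p = 0.828) and -0.15 (35‰ against 18‰, adjusted p = 0.793). The 95% interval for the first ran from -0.46 to 0.48.

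Across comparisons, all 5 members passed the filter of 1 TPM in 2 libraries and limma called 0 of 5 in each. Over all genes it called 0.0127% for 18‰ against 0‰, 0.19% for 35‰ against 0‰ and 0.317% for 35‰ against 18‰. At an unadjusted p under 0.05 the members also numbered 0, with 5.93%, 11.3% and 12.5% of all genes. With 2 libraries against 2, an exact two-sided permutation test cannot give a p below 0.333.

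**Figure D4:**
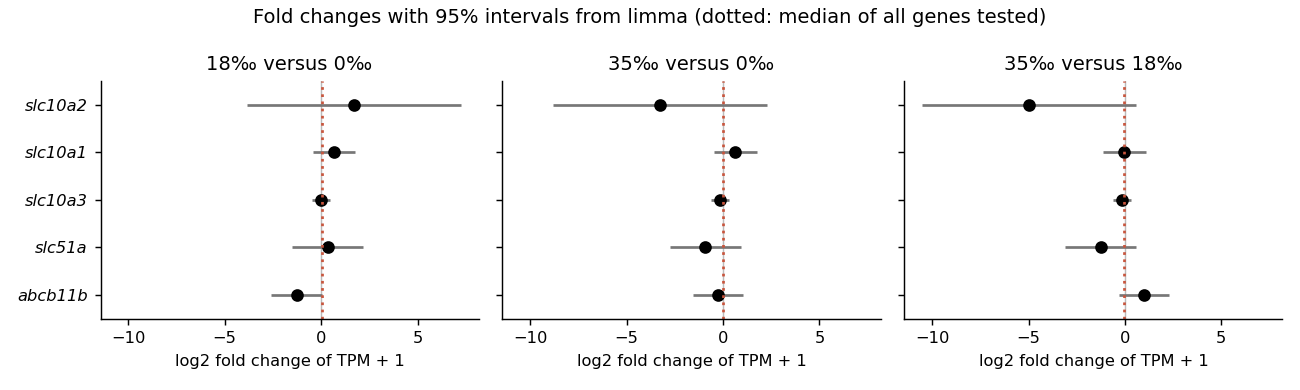
Log2 fold change on TPM + 1 of each member in the 3 comparisons, with 95% limma intervals. Every interval crosses 0, and those of slc10a2 are the widest, reaching from -3.84 to 7.28 for 18‰ against 0‰.

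Groups without overlap were counted with no test. For 18‰ against 0‰, slc10a2 and slc10a1 were higher (2 of 5, against 24.7% of all genes) and abcb11b lower (1 of 5, against 12.8%). For 35‰ against 0‰ only slc10a3 was lower (1 of 5, against 20.0%), and none was higher (18.9% of all genes). For 35‰ against 18‰, abcb11b was higher (1 of 5, against 18.7%) and slc10a2, slc10a3 and slc51a were lower (3 of 5, against 29.0%). The comparisons share libraries, so these counts are not independent. abcb11b passed the filter only through 0‰ replicate 2 and 35‰ replicate 2. Its lower place at 18‰ is therefore tied to how it entered the genes tested, and its counts carry no weight.

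The bile acid synthesis list (30 symbols, 6 rows measured) gave 0 calls in each comparison by limma, with 0, 4 and 2 genes at an unadjusted p under 0.05. All 6 had log2 differences above 0 at 35‰ against 0‰, with a median of 1.07 against -0.01 over all genes, and 4 of 6 did not overlap, against 18.9% of all genes. The largest belonged to cyp7a1, the rate-limiting enzyme of bile acid synthesis, which was at 0 and 2.49 TPM at 0‰, 1.54 and 0.30 TPM at 18‰, and 16.1 and 219.6 TPM at 35‰. Both 35‰ libraries were above all others. Its log2 difference from 0‰ was 5.04 (SE 1.15, limma adjusted p = 0.204) and from 18‰ 5.08 (adjusted p = 0.188). Within the liver list, the plasma protein gene vtnb was also higher in both 35‰ libraries (24.9 and 16.6 TPM) than in both 18‰ libraries (0.78 and 1.06 TPM). Unlike cyp7a1, it overlapped 0‰, at 1.78 and 44.5 TPM there. Of the 7 tested liver genes, 6 had log2 differences below 0 at 35‰ against 0‰. Against 18‰, 4 were above 0 and 3 below. The sum of the list was 63.1 and 45.7 TPM at 35‰, 73.7 and 73.5 TPM at 18‰, and 77.4 and 860 TPM at 0‰. The part of liver transcripts in the cyp7a1 values was not tested.

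Other synthesis genes were less steeply graded. slc27a2a, which activates bile acids and fatty acids with coenzyme A, was at 17.2 and 14.1 TPM at 0‰, 32.3 and 33.5 TPM at 18‰, and 30.4 and 126 TPM at 35‰. hsd3b7, a dehydrogenase of the sterol ring, was at 31.1 and 17.1 TPM at 0‰, 34.5 and 22.0 TPM at 18‰, and 48.1 and 69.1 TPM at 35‰. For 35‰ against 0‰ the log2 differences were 1.93 and 1.28 (limma adjusted p = 0.30 and 0.282), with the groups apart for both. AKR1D1, hsd17b4 and scp2b gave 0.70, 0.86 and 0.31, with adjusted p between 0.372 and 0.72. No gene of the list was called with any 1 library left out.

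The sensing and control list (38 symbols, 17 rows measured, 16 tested) gave 0 calls in each comparison by limma, with 1, 4 and 1 genes at an unadjusted p under 0.05. Its median log2 differences were 0.16, 0.00 and -0.17. nr1h4, the nuclear bile acid receptor FXR, was between 6.25 and 12.3 TPM. nr0b2a, its repressor target SHP, was at 157 and 398 TPM at 0‰, 104 and 421 TPM at 18‰, and 59.4 and 91.7 TPM at 35‰. Both 35‰ libraries were below all others (log2 difference from 0‰ -1.75, limma adjusted p = 0.408). The membrane bile acid receptor gpbar1 was also lowest at 35‰, at 2.37 and 0.93 TPM, against 3.16 to 5 TPM elsewhere. Other genes of the list went the other way. At 35‰ against 0‰, 3 of the 16 did not overlap and were higher, against 18.9% of all genes. Another 3 were lower, against 20.0%. The higher genes included cebpd, at 152 and 129 TPM at 0‰ and 255 and 212 TPM at 35‰. Its 18‰ libraries held 141 and 332 TPM.

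The list of other sterol and canalicular transporters (35 symbols, 11 rows measured, 10 tested) gave 0 calls by limma in each comparison, with 2, 2 and 1 genes at an unadjusted p under 0.05. The median log2 differences were 0.33, 0.11 and -0.37. The drug efflux pump ABCB1 was at 374 and 648 TPM at 0‰, 994 and 983 TPM at 18‰, and 356 and 817 TPM at 35‰. Like slc10a2 it was highest in the 18‰ libraries, and it was lowest in 35‰ replicate 1. The cholesterol importer NPC1L1 was at 24.1 and 59.6 TPM at 0‰, 108 and 83.6 TPM at 18‰, and 78.8 and 137 TPM at 35‰.

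Several genes known from distal gut were lower at 35‰. All 8 tested genes of the distal, lysosome-rich enterocyte list, which includes tmigd1, had log2 differences below 0 at 35‰ against both 0‰ and 18‰. Of all 7897 genes, 4027 and 4489 were below 0. Against 0‰, 7 of the 8 did not overlap and were lower, against 20.0% of all genes, and against 18‰ all 8 were, against 29.0%. The exception was tmigd1, which in 35‰ replicate 2 (415 TPM) was above both 0‰ libraries (319 and 212 TPM). limma called 4 of the 8 lower in both comparisons, against 0.177% and 0.279% of all genes. The list held 16 symbols, of which 8 were measured. It was chosen with earlier results of these data known, so its counts beside those shares are a description only. The 4 called genes were the proteases ctsl.1, ctsbb and lgmn and the cobalamin carrier tcn2. ctsl.1 fell by 7.79 on the log2 scale against 0‰ (SE 0.27, adjusted p = 0.000113) and lgmn fell by 3.51 (SE 0.28, adjusted p = 0.00902). The summed TPM of the list was 4421 and 2853 at 0‰, 3383 and 3646 at 18‰, and 337 and 802 at 35‰. Of the 35‰ sums, tmigd1 supplied 0 and 415 TPM, so most of the gap between these 2 sums was tmigd1. Without 35‰ replicate 1, 2 of the 8 genes were called in each comparison, and over all leave-outs the count was 2 to 6 against 0‰ and 1 to 5 against 18‰, the lowest without either 18‰ library. ctsl.1 was called in 6 of 6 leave-outs in both.

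**Figure D5:**
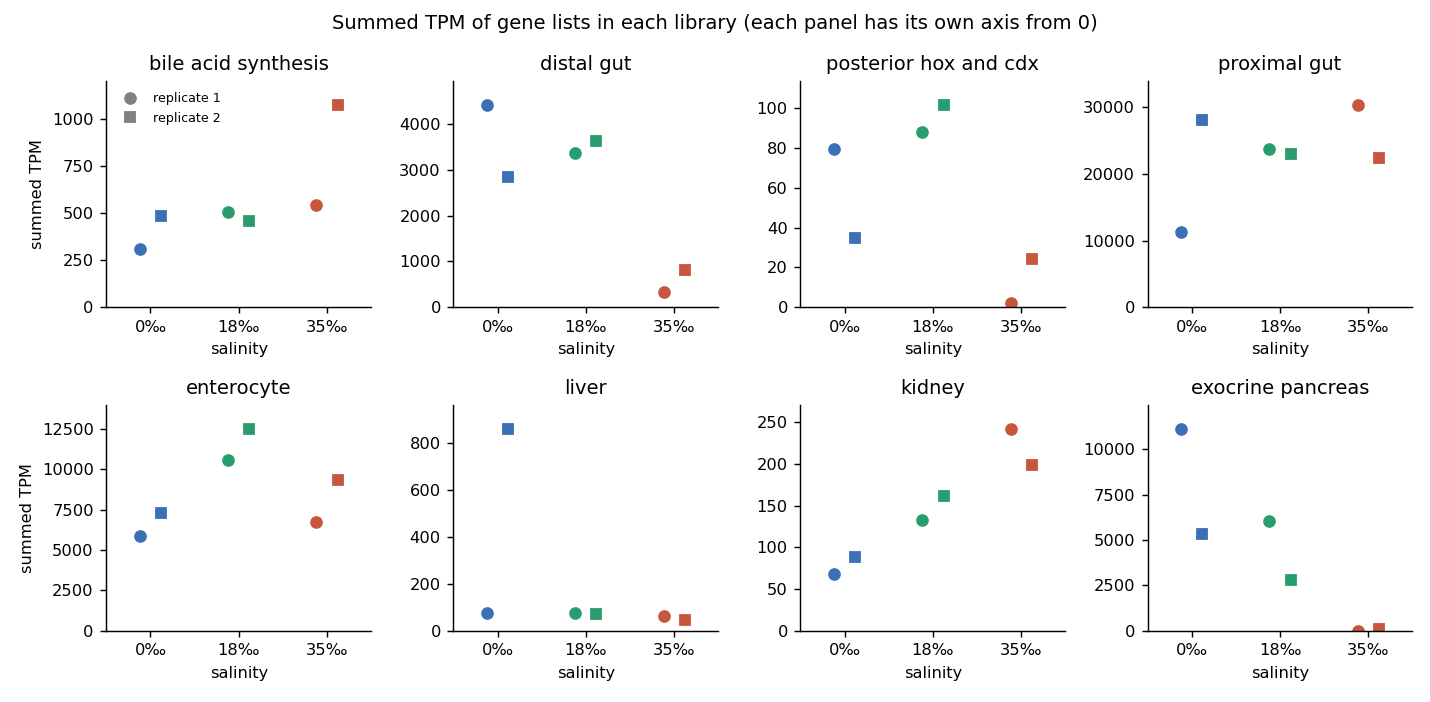
Summed TPM of 8 gene lists by salinity, each panel with its own linear axis from 0. Circles are replicate 1 and squares replicate 2, and the distal gut sums at 35‰ were 337 and 802 TPM against 2853 to 4421 TPM in the other libraries. Of the 35‰ sums, tmigd1 supplied 0 and 415 TPM.

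The posterior hox and cdx list summed to 79.7 and 34.8 TPM at 0‰, 87.9 and 102 TPM at 18‰, and 2.04 and 24.0 TPM at 35‰. Of its 6 tested genes, hoxa13a alone was called, at 35‰ against 18‰ (log2 difference -4.23, limma adjusted p = 0.0378), and it was not called without 35‰ replicate 1, 35‰ replicate 2 or either 18‰ library. Over all genes, limma called 0.279% lower at 35‰ against 18‰. Without 0‰ replicate 2, which leaves 1 library at 0‰, the median log2 difference of the 6 from 0‰ was -2.50. With all libraries it was -1.97. The sum of the posterior list was lowest in the library with slc10a2 listed at 0. In 35‰ replicate 2 the posterior sum, 24.0 TPM, was nearer to that of 0‰ replicate 2, 34.8 TPM. Against 0‰, 4 of the 6 tested genes did not overlap and were lower, against 20.0% of all genes. Against 18‰ all 6 were, against 29.0%. slc10a2 was at 0 in 35‰ replicate 1 and at 429 TPM in 35‰ replicate 2. The part of gut position in these values was not tested.

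Genes typical of neighbouring organs were also measured. The 4 genes of the exocrine pancreas list, among them cpb1 and prss59.1, summed to 11114 and 5340 TPM at 0‰, 6052 and 2824 TPM at 18‰, and 10.3 and 94.0 TPM at 35‰. All 4 were lower at 35‰ than at 0‰ and at 18‰ with the groups apart, against 20.0% and 29.0% of all genes. limma called 2 of the 4 lower in each comparison, against 0.177% and 0.279% of all genes. This list (31 symbols, 4 rows measured) was also chosen with earlier results known, so its counts are a description only. The 2 calls were lost without 35‰ replicate 1 or, against 18‰, without 18‰ replicate 1. Fits that leave 1 library in a group also change the calls over all genes, so calls added by them carry no weight. The kidney list (10 rows measured, 7 tested) gave 0 calls by limma, with 4, 3 and 4 genes at an unadjusted p under 0.05, and summed to 68.5 and 89.2 TPM, 133 and 161 TPM, and 242 and 199 TPM from 0‰ to 35‰. Without 0‰ replicate 2 the median log2 difference of the kidney list at 35‰ against 0‰ was 0.41, and with all libraries it was 0.31. The defining kidney genes pax2a and cdh16 were at 0 in every library except 35‰ replicate 2, where they were at 0.99 and 0.55 TPM. pax8 was at 0.32 TPM there and at most 0.01 elsewhere. At 18‰ against 0‰, where slc10a2 was higher, all 7 tested rows of the list had log2 differences above 0, with a median of 0.77. Of the 7, 5 did not overlap and were higher, against 24.7% of all genes. The 10 rows carry 8 symbols, because several rows share the symbol slc22a13b, and all of these were among the 5. The most abundant slc22a13b row was at 146 and 101 TPM at 35‰, a large part of the list sum. slc4a4a, a bicarbonate cotransporter, was at 26.04 and 27.85 TPM at 0‰ and 43.02 and 50.76 TPM at 18‰. In mammals the renal tubule also expresses slc10a2, and the part of kidney transcripts in its values was not tested. The liver list gave 0 calls (7 tested, with 2, 3 and 1 at an unadjusted limma p under 0.05), and 3 were called lower at 18‰ and 3 at 35‰ against 0‰ without 0‰ replicate 1, which leaves the library with the high liver sum. Without 0‰ replicate 2, vtnb was called higher and f2 lower at 35‰ against 0‰. vtnb was called higher at 35‰ against 18‰ without either 0‰ library.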

How the data were processed

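Total intestinal RNA of 6 libraries, 2 per salinity, was sequenced as paired-end reads. Per the paper's methods and the labels, the authors aligned reads with STAR and quantified transcripts with StringTie, and the deposited values are TPM per gene. Versions and genome build are not given in the sources used here, so no coordinates are given. TPM is not a count, so the main test was limma (version 3.58.1, R 4.3.3) with a mean-variance trend on log2(TPM + 1), in one fit of all 6 libraries. Genes at 1 TPM or more in at least 2 libraries entered (7897 of 10389). Calls needed a Benjamini-Hochberg adjusted p under 0.05 within a comparison and a fold change above 1.5. The fit was tested on simulated data.

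Every member was named. From the lists, genes called and up to 5 of the highest mean TPM could be named. Also named, after their values were seen, were hsd3b7, nr1h4, gpbar1, pax2a, pax8, cdh16, mylpfa, desma and tmsb4x. Likeness was ranked by Pearson r, 5 genes named. Members and lists were chosen with earlier results of these data known. The lists covered bile acid synthesis, sensing, other transporters, distal and proximal gut, posterior hox, enterocyte, liver, pancreas, kidney, leukocyte and muscle genes. The 5 member symbols were all found in the RefSeq gene table (Guppy_female_1.0+MT). Alternatives covered the pseudocount, filters, trend, robust fit, scalings, array weights, replicate block, subsets of libraries, and each library left out. Likeness to fabp6 and promoter motifs were planned and not run.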

Additional observations from a re-analysis of the deposited data

How the results depend on the processing

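Over the alternatives, 229 of 241 member log2 differences kept their direction. Many of these could not change. The alternatives of filter, trend, robust fit, array weights and replicate block return the same difference, as does leaving out a library outside the comparison. The tally is therefore no measure of robustness. limma called 0 members under every alternative except without 35‰ replicate 2, which called slc10a2 at 35‰ against 0‰ and against 18‰, so the leave-one-out range was 0 to 1 in both. Leaving out 1 library at a time, chosen after seeing the data, moved the members with groups apart to between 3 and 5 for 18‰ against 0‰ and to 3 for 35‰ against 0‰. A single library lies apart from a pair more readily for any gene, so these counts cannot be set against those of the full groups. The share over all genes under these leave-outs was not computed. With a pseudocount of 0.1, 13 genes, not 5, were low in 35‰ replicate 1, and 2 members, not 1, differed past 4-fold at 35‰ (the latter chosen after seeing the data). The sign turned for slc10a3 at 18‰ against 0‰ with median-ratio scaling (-0.0747) and equal-sum scaling (-0.0851; leave-one-out -0.0194 to 0.0377), and for slc10a1 at 35‰ against 18‰ with median-ratio scaling (0.0502; leave-one-out -0.74 to 0.68). Leave-one-out ranges crossed 0 for slc51a at 18‰ against 0‰ (-0.996 to 1.70) and 35‰ against 0‰ (-2.26 to 0.44), and at 35‰ against 0‰ for slc10a2 (-7.65 to 1.104), abcb11b (-0.93 to 0.36) and slc10a1 (-0.0652 to 1.36). Equal-sum scaling moved the median of all genes at 35‰ against 0‰ from -0.01 to -0.16. Over all genes, calls ranged from 0 to 11, 1 to 89 and 3 to 45 over the alternatives, against 1, 15 and 25. Some filters left slc51a and abcb11b without a value. The causes were not tested.

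Over all genes, same-numbered libraries showed little shared deviation (correlations 0.06, -0.04 and 0.05 over 7897 genes). Such a correlation cannot exclude a tank or day shared by same-numbered libraries that affects some genes. The labels do not say what the number marks. With the replicate block, 0 members were called, and 0, 16 and 25 genes in all. The limits are 2 libraries per group, unknown depth, and listed zeros that may be failed estimates.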

Other observations

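Lists that enter no comparison above gave the following values. The proximal gut list (15 genes, among them the lipid carrier apoa1b and the retinol carrier rbp2a) summed to 11302 and 28084 TPM at 0‰, 23682 and 22967 TPM at 18‰, and 30324 and 22368 TPM at 35‰, with 0 limma calls and 2, 1 and 3 genes at an unadjusted p under 0.05. The sums were not low in 35‰ replicate 1, the library with slc10a2 listed at 0. They mainly followed 1 gene, as apoa1b alone supplied 20930 TPM in that library and 7262 TPM in 0‰ replicate 1. The leukocyte list (10 genes) summed to 857 TPM in 0‰ replicate 1 and between 279 and 405 TPM elsewhere. It had 0 limma calls and 0, 1 and 1 genes at an unadjusted p under 0.05. Its median log2 difference at 35‰ against 0‰ was -0.56, and -1.42 without 0‰ replicate 2. The list of smooth muscle and other muscle genes (11 rows measured, 9 tested) summed to between 189 and 344 TPM. It had 0 limma calls and 3, 5 and 2 genes at an unadjusted p under 0.05. In it, mylpfa and desma were at 37.45 and 9.04 TPM in 35‰ replicate 1, against 4.88 and 0.81 TPM in 35‰ replicate 2.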
